A study of Xenopus tropicalis with 7 samples.

Results

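The change in the *X. tropicalis* transcriptome between the early tail bud and the early tadpole was read from 4 of the 7 poly(A) RNA libraries of the series, namely 3 libraries of control embryos at stage 32 and 1 library of uninjected embryos at stage 20. All embryos were wild type and of the Nigerian (Cam4) strain. The control embryos at stage 32 had received 20 ng of a control morpholino at the 1-cell stage. A morpholino is an antisense oligonucleotide that blocks splicing or translation of its target transcript. As their control, the authors chose a morpholino for human *β-globin*. The embryos at stage 20 had received nothing. RNA amounting to 2 whole embryos went into each library, and the 3 control libraries are labelled as biological replicates. The 3 libraries of Xbra/Xbra3 KD embryos at stage 32, which complete the series, did not enter the comparison. Genes were compared on CPM, the reads of a gene scaled to a common library size, with edgeR's TMM factors. A gene was called when the FDR of edgeR's quasi-likelihood test was below 10% and the stage 20 library lay outside the range of all 3 control libraries. Of 19884 genes in the table, 16699 had at least 10 reads over the 4 libraries and were tested.

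At stage 20 a frog embryo has closed its neural tube and is laying down somites from a pool of cells in the tail bud. Most organs of the embryo are still fields of progenitors at this stage. By stage 32 the heart tube has formed, primitive red blood cells differentiate, the lens and retina take shape, melanin is visible in the eye and skin, and the liver and gut primordia begin to express their own products.

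The stage 20 library held 119004036 reads, within the range of the control libraries at stage 32 (79219418 to 120160026 reads), and from 16869 to 17187 genes had a read in each library. Control replicate 2 stood apart from replicates 1 and 3. Its distance over log2(CPM + 1) was 60.6 to replicate 1 and 48.2 to replicate 3, against 35.5 between replicates 1 and 3, and it was also farther from the stage 20 library (138) than replicates 1 (104) and 3 (115). Among the called genes, replicate 2 was the control farthest from the stage 20 value for 65.6% and replicate 1 the nearest for 59.2%. The stage 20 library has no replicate, so the test assumes that it would vary as the control libraries do. Stage cannot be told apart from injection, nor from any difference between clutches. In whole embryos, fewer cells of a type and less RNA per cell cannot be told apart.

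Of the genes tested, 37.3% were called: 3365 genes were higher at stage 32 (20.2% of genes tested) and 2856 were lower (17.1%). No gene with an FDR below 10% lay inside the range of the controls. Rises were the larger changes. At least a 4-fold distance between the stage 20 library and the nearest control library was found for 1036 of the genes that were higher (6.20% of genes tested) and 274 of those that were lower (1.64%). The median log2 fold change, stage 32 over stage 20, was 0.05 over all genes tested, 1.65 over the genes that were higher and -1.10 over those that were lower. The counts rested on the control libraries used. Without control replicate 3 they were 1821 genes higher and 1357 lower, whereas without replicate 2 they were 3963 and 3606, and without replicate 1 they were 3731 and 3054. With the libraries scaled to the reference genes *odc1*, *rpl8*, *eef1a1* and *gapdh*, 3138 genes were higher and 1398 lower, so that 69.2% of the calls were rises against 54.1% under TMM. That scaling put the median of all genes at 0.31 on the log2 scale, and scaling by library size alone put it at 0.15, so changes below are relative to the bulk of the transcriptome. Under TMM, *rpl8* was itself called higher (log2 fold change 0.90) and *odc1* lower (-0.85). *eef1a1*, at 24065 CPM in control embryos against 2147 CPM for *rpl8* and 1348 CPM for *odc1*, carried most of the reads behind the reference scaling.

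**Figure D1:**
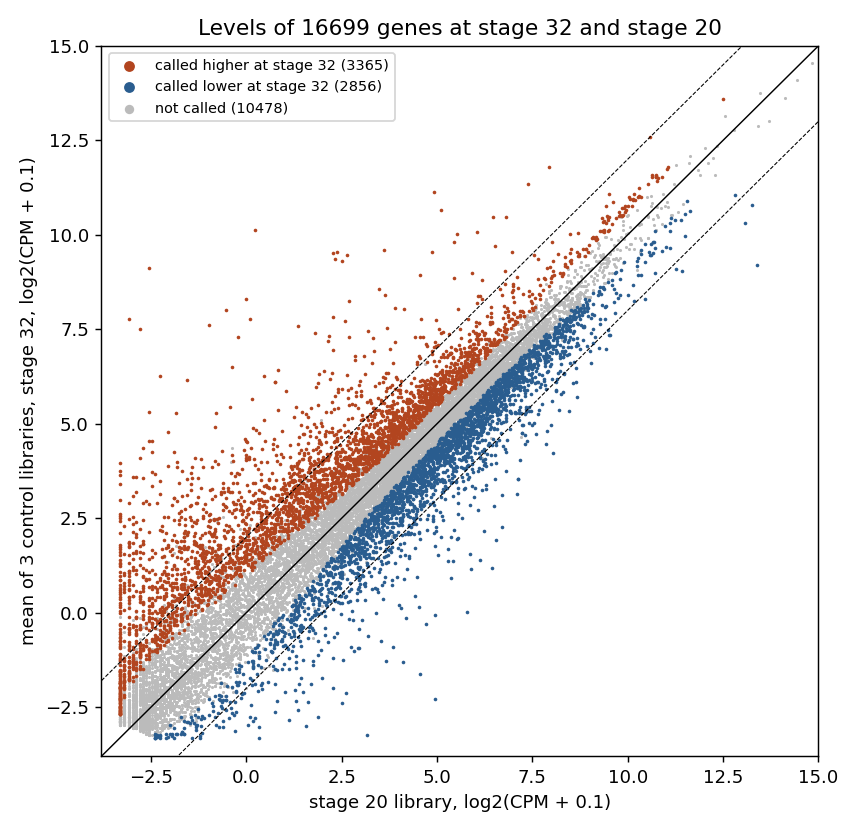
Each point is 1 of 16699 genes, with the mean of the 3 control libraries at stage 32 on the y axis and the stage 20 library on the x axis, both as log2(CPM + 0.1). The solid line marks equal levels and the dashed lines a 4-fold difference; the 3365 genes called higher reach far above the upper dashed line, while most of the 2856 genes called lower lie between the solid line and the lower one.

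The 8 largest called rises among abundant genes with a symbol were in *mip*, *fga*, *mgc79749*, *rbp4*, *fgg*, *APOB*, *tyr* and *rbp2*. *mip*, the water channel of lens fibres, stood at 14.2, 13.9 and 17.9 CPM in control replicates 1, 2 and 3, and had no read at stage 20. This makes it at least 577-fold higher at stage 32, computed against 3 reads in the stage 20 library. *fga*, which encodes the fibrinogen alpha chain, stood at 124, 323 and 209.6 CPM in the controls against 2 reads at stage 20, a ratio of 12346 whose 95% Poisson interval of 3418 to 101950 covers only the counting error of those 2 reads. The fibrinogen gamma gene *fgg* averaged 182 ± 92.0 CPM (SD, n = 3) in control embryos against 0.0443 CPM at stage 20. *rbp4*, which carries retinol in plasma, averaged 557 ± 357 CPM in control embryos against 0.0709 CPM at stage 20. *APOB*, the scaffold of lipoprotein particles, averaged 1125 ± 758 CPM in control embryos against 1.07 CPM at stage 20. The retinol-binding *rbp2* of the gut averaged 39.5 ± 31.7 CPM in control embryos, against 0.0709 CPM at stage 20. *tyr*, the tyrosinase that starts melanin synthesis, stood at 48.2, 108 and 72.8 CPM in the controls and at 0.106 CPM at stage 20. *mgc79749*, which the files annotate no further, was at least 504-fold higher. In 7 of these 8 genes, all but *mip*, the highest control was replicate 2. Without it the log2 fold change was 12.29 in place of 12.92 for *rbp4*, 9.32 in place of 10.03 for *APOB* and 8.25 in place of 9.10 for *rbp2*, and each remained called.

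Of the 8 largest called falls among abundant genes with a symbol, 4 were in the early regulators *sox17b.1*, *foxh1*, *nodal1* and *wnt8a*, and 4 were in *slc5a8*, *hao1*, *ankrd37* and *or51e1*. *sox17b.1*, an HMG box factor of the endoderm, fell to 0.239, 0.179 and 0.486 CPM in control embryos at stage 32, against 17.01 CPM at stage 20 (log2 fold change -5.85, SE 0.49, edgeR FDR 0.00273). *foxh1*, a partner of Smad proteins in nodal signalling, fell to 0.714 ± 0.401 CPM (SD, n = 3) in control embryos, against 26.02 CPM at stage 20. *nodal1*, a mesoderm-inducing ligand of the same pathway, stood at 0.982, 0.0853 and 0.237 CPM in the controls, against 14.2 CPM at stage 20. *wnt8a*, a ligand of the ventral and lateral mesoderm and the posterior axis, stood at 3.08, 0.154 and 2.17 CPM in the controls, against 40.9 CPM at stage 20. Its log2 fold change of -4.51 became -5.18 without control replicate 1, and the -5.01 of *nodal1* became -6.51. *slc5a8*, a monocarboxylate carrier of the kidney tubule, averaged 3.69 ± 0.511 CPM in control embryos against 92.7 CPM at stage 20 (log2 fold change -4.65, SE 0.20). *hao1*, a peroxisomal hydroxyacid oxidase, averaged 2.53 ± 0.976 CPM in control embryos against 69.9 CPM at stage 20. *ankrd37* averaged 4.70 ± 2.15 CPM in control embryos against 104 CPM at stage 20, and the G protein-coupled receptor gene *or51e1* 0.808 ± 0.342 CPM in control embryos against 18.0 CPM at stage 20.

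**Figure D2:**
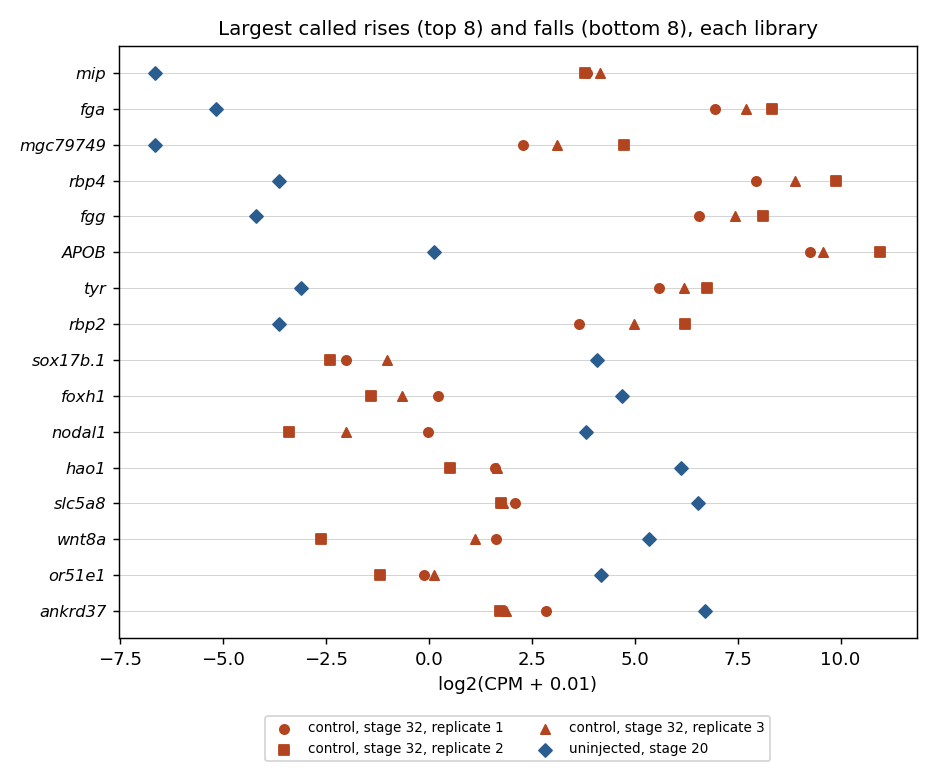
Levels of the 8 largest called rises (upper rows) and 8 largest called falls (lower rows) among genes with a symbol and at least 10 CPM in the higher group, as log2(CPM + 0.01) in each library. Brown symbols are the 3 control libraries at stage 32 and blue diamonds the stage 20 library; *mip* and *mgc79749* had no read at stage 20, and the squares of control replicate 2 lie at the right end for 7 of the 8 rises.

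Far more genes came on than went off under the rules used. At most 3 reads at stage 20 and at least 30 in every control library were found for 92 genes (0.551% of genes tested), of which 41 had no read at stage 20. The reverse, at most 3 reads in every control library and at least 30 at stage 20, was found for 8 genes (0.0479%). The rules are not mirror images, because low counts were required in 1 library for coming on and in 3 for going off. Without control replicate 1 the number that went off was 20, and without replicate 2 it was 13, since each control library can hold a few reads of a gene. Lens crystallins were among the switched-on genes. Of 31 gamma crystallin genes in the table, 14 came on and 24 of the 29 tested were called higher, each by at least 4-fold against the nearest control. This family was singled out after its values were seen, and its members take names such as *crygdl.32* only from a later RefSeq annotation. *crygdl.32* had 1065, 1649 and 1144 reads in the controls and none at stage 20. Together the gamma crystallins took 0.0137%, 0.0202% and 0.0186% of the reads in the controls, against 0.000223% at stage 20. Read pairs that fit several genes were discarded by the authors, so the split between near-identical crystallin copies is uncertain.

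Of the 92 genes that came on, 45 had a symbol. *akr1d1*, which reduces steroids and bile acid precursors, had 829, 1357 and 521 reads in the controls against 3 at stage 20. The neuronal microtubule regulator *stmn4* had 535, 1210 and 568 reads in the controls against 2 at stage 20. *rhd*, a Rhesus protein of the red cell membrane, had 327, 818 and 412 reads in the controls against 3 at stage 20. *gltpd2*, a glycolipid transfer protein gene, was at least 292-fold higher, with 486, 1374 and 598 reads in the controls and none at stage 20. *tnnt2*, cardiac troponin T, had 258, 831 and 416 reads in the controls against 1 at stage 20, a ratio of 545 (95% Poisson interval 97.8 to 21512). Of the genes that went off, *angpt4* was by far the most abundant. This angiopoietin gene had 2, 0 and 0 reads in the controls against 1000 at stage 20, so that its stage 20 level was 1394 times that of the 3 controls with their reads pooled (95% Poisson interval 386 to 11508). *igsf3*, an immunoglobulin superfamily gene, had 0 reads in each control and 37 at stage 20.

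Genes were next grouped into 28 lists by tissue or process. Some genes, such as *tnnt2* and *gata4*, belong to several lists, so the lists are not independent of each other. In 14 lists more members were higher at stage 32, in 13 more were lower, and in 1, the p53 response, the counts were equal.

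**Figure D3:**
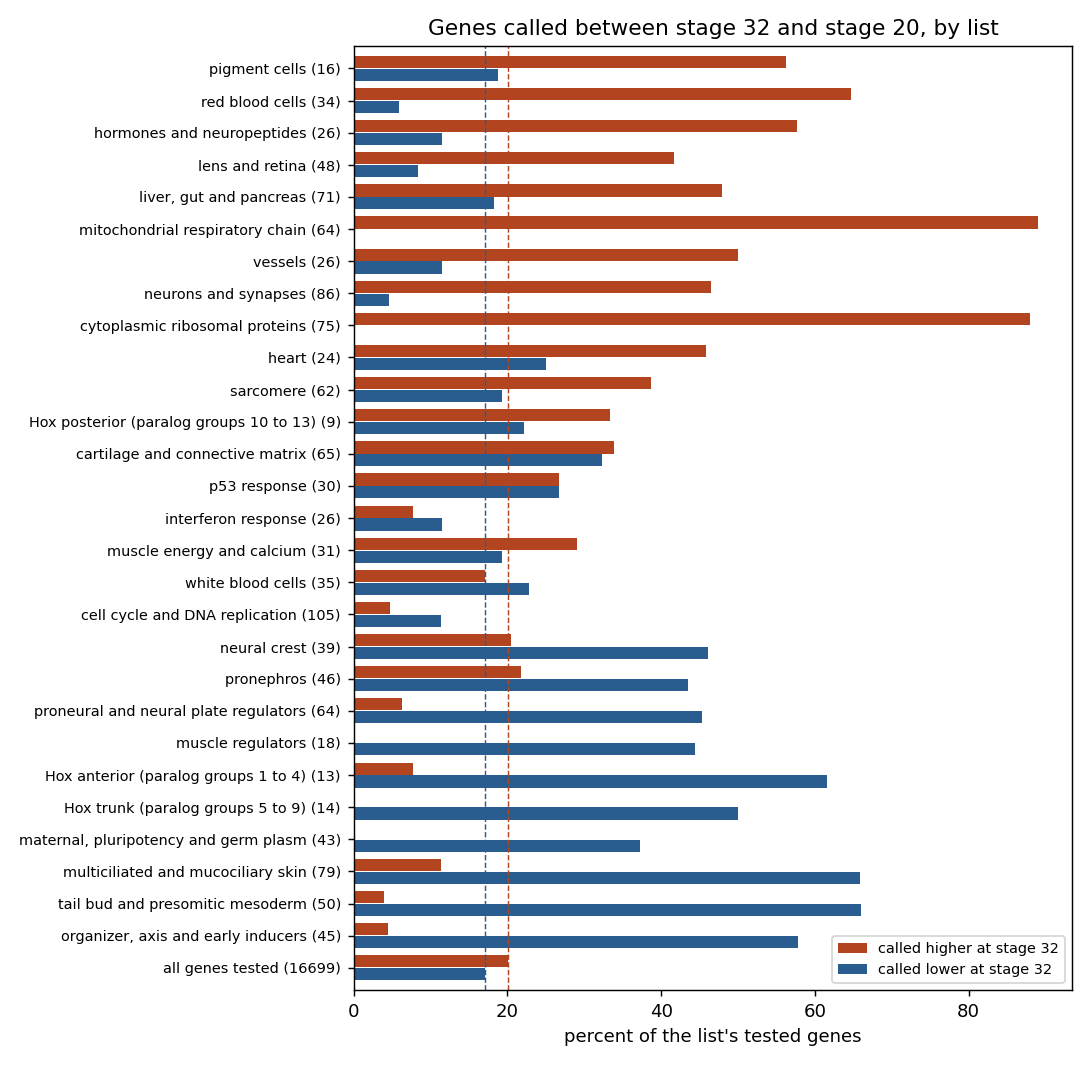
Percent of the tested genes of each list called higher (brown) or lower (blue) at stage 32, with the number tested in parentheses and lists ordered by their median log2 fold change. The dashed lines are the percentages over all genes tested, 20.2% higher and 17.1% lower, which also form the bottom row; the mitochondrial respiratory chain and ribosomal protein lists have no gene called lower, and the tail bud, skin and organizer lists have most of their genes called lower, as has the anterior Hox list.

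The liver, gut and pancreas list rose in 34 of 71 tested genes and fell in 13, with a median log2 fold change of 1.29 against 0.05 over all genes tested. The share of falls (18.3%) was near the 17.1% of all genes tested. The rises included secreted products. *apoa1*, the main protein of high-density lipoprotein, stood at 1263, 3349 and 2074 CPM in the controls against 30.3 CPM at stage 20 (log2 fold change 6.20, SE 0.75, edgeR FDR 0.00632). *ttr*, the thyroid hormone carrier transthyretin, stood at 155, 1041 and 712 CPM in the controls and at 5.64 CPM at stage 20. *ins*, the insulin gene of the pancreas, stood at 7.24, 9.43 and 12.7 CPM in the controls and at 0.611 CPM at stage 20. *fabp2*, a fatty acid binding protein of the gut lining, stood at 5.73, 94.3 and 16.7 CPM in the controls against 0.478 CPM at stage 20. Its log2 fold change was 6.34, and 4.54 without control replicate 2. The falls were in regulators and in complement genes. *cdx2*, a homeobox gene of the hindgut and tail, fell to 3.31 ± 0.330 CPM (SD, n = 3) in control embryos against 30.8 CPM at stage 20, and *sox17a*, *pdx1*, *gata4*, *gata6*, *foxa1* and *foxa2* were also lower. *alb*, which codes for albumin in other vertebrates, was near 0 at both stages (13, 5 and 2 reads in the controls and 12 at stage 20).

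The red blood cell list rose in 22 of 34 tested genes and fell in 2, with a median log2 fold change of 1.85. *hbz*, a globin gene, stood at 165, 216 and 202 CPM in control embryos against 0.408 CPM at stage 20 (log2 fold change 8.89, SE 0.37, edgeR FDR 0.000926). *hbe1*, another globin gene, averaged 731 ± 186 CPM (SD, n = 3) in control embryos against 4.71 CPM at stage 20, and *hba1* 26.2 ± 5.38 CPM in control embryos against 2.71 CPM at stage 20. All 10 globin genes in the table were called higher, and together they took 0.436% ± 0.108 of the reads in control embryos against 0.0161% at stage 20. Globin genes resemble each other, so reads that fit several of them are missing. The erythroid factor *gata1* stood at 11.4, 16.1 and 15.8 CPM in the controls against 0.354 CPM at stage 20. *alas2*, which starts haem synthesis in red cells, stood at 153, 151 and 170 CPM in the controls against 24.5 CPM at stage 20. *lmo2*, a bridging factor of blood and vessel precursors, fell to 23.6 ± 3.07 CPM in control embryos against 77.1 CPM at stage 20. The number of falls was 1 without control replicate 2 and 1 without replicate 3.

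Of 35 tested white blood cell genes 6 were higher (17.1%) and 8 lower (22.9%), near the 20.2% and 17.1% of all genes tested, and 4 were lower without control replicate 3. *spib*, an Ets factor of the first myeloid cells in the frog, stood at 9.82, 5.87 and 6.41 CPM in the controls against 46.7 CPM at stage 20 (log2 fold change -2.66, SE 0.30, edgeR FDR 0.00551). *mpo*, myeloperoxidase, stood at 197, 113 and 116 CPM in the controls and 348 CPM at stage 20, and was not called without control replicate 3. *ncf1*, a subunit of the phagocyte oxidase, averaged 1.85 ± 0.646 CPM (SD, n = 3) in control embryos against 9.51 CPM at stage 20. *mmp8*, a collagenase of granulocytes, had the largest rise of the 6 genes called higher, with 9.09 ± 1.496 CPM in control embryos against 0.771 CPM at stage 20.

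Vessel genes rose in 13 of 26 tested members and fell in 3, with a median log2 fold change of 1.07. *cdh5*, the cadherin of endothelial junctions, stood at 26.5, 32.9 and 26.4 CPM in the controls against 1.09 CPM at stage 20 (log2 fold change 4.71, SE 0.30, edgeR FDR 0.00191). *stab2*, a scavenger receptor of sinus endothelium, averaged 156 ± 36.8 CPM (SD, n = 3) in control embryos against 6.33 CPM at stage 20. The junction protein gene *pecam1* averaged 5.07 ± 2.60 CPM in control embryos against 0.301 CPM at stage 20. The lymphatic marker *lyve1* had 84, 428 and 123 reads in the controls and 2 at stage 20, a ratio of 111 (95% Poisson interval 30.7 to 917), and its log2 fold change of 6.70 was 5.88 without control replicate 2. *kdr*, the receptor that marks endothelial cells from their precursors on, stood at 25.7, 20.6 and 23.7 CPM in the controls and at 24.1 CPM at stage 20, inside their range. Against these, *angpt4* was the most abundant of the genes that went off.

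Lens and retina genes rose in 20 of 48 tested members and fell in 4, with a median log2 fold change of 1.72. The lens crystallins together took 0.0386%, 0.0417% and 0.0418% of the reads in the controls against 0.00157% at stage 20. Photoreceptor genes differed more between the controls. *opn1lw*, a cone opsin, stood at 1.78, 63.8 and 4.51 CPM in the controls against 0.0709 CPM at stage 20, and its log2 fold change of 8.34 became 5.44 without control replicate 2. *pde6c*, the cone phosphodiesterase, had 79, 1660 and 141 reads in the controls and none at stage 20. The mean of its controls was at least 208-fold higher, but replicate 2 carried most of that mean. *rho*, rod opsin, had 49, 7122 and 42 reads in the controls and 75 at stage 20, so the stage 20 library lay inside the range of the controls and above replicates 1 and 3 in reads. *rax*, a homeobox gene of the eye field, fell to 60.6, 29.9 and 47.7 CPM in control embryos against 119.8 CPM at stage 20. The number of eye genes called lower was 7 without control replicate 2 and 1 without replicate 3. *cryaa*, an alpha crystallin gene, had 2, 1 and 1 reads in the controls and 2 at stage 20, too few to be tested.

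**Figure D4:**
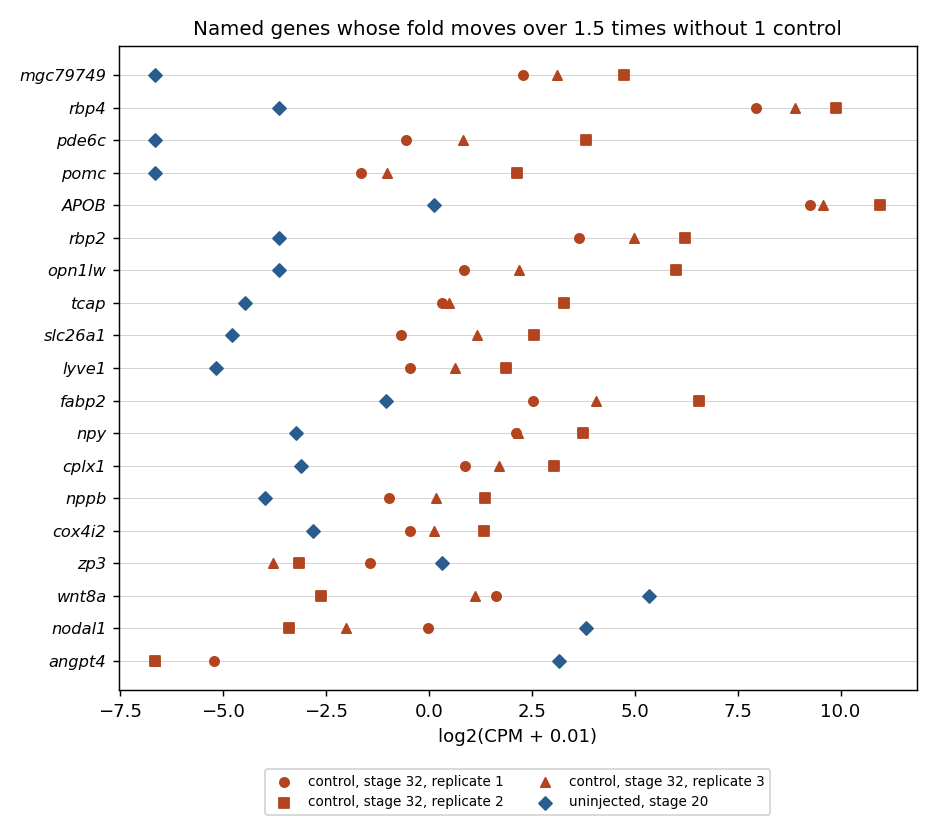
Levels, as log2(CPM + 0.01), of 19 named genes whose fold change moved by over 1.5 times when 1 control library was left out. Brown symbols are the control libraries at stage 32 and blue diamonds the stage 20 library; the square of control replicate 2 is the control farthest from the stage 20 value in 18 of the 19, all but *zp3*, and is level with replicate 3 in *angpt4*, where both had no read.

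Pigment cell genes rose in 9 of 16 tested members and fell in 3, and each of the 9 rises was at least 4-fold against the nearest control. The falls, 18.8% of the list, were near the 17.1% of all genes tested. Besides *tyr*, the melanin enzymes *dct* and *tyrp1* rose. *dct* stood at 124, 181 and 136 CPM in the controls against 4.30 CPM at stage 20 (log2 fold change 5.096, SE 0.35, edgeR FDR 0.00210), and *tyrp1* at 131, 329.9 and 168 CPM in the controls against 5.95 CPM at stage 20. *rab38*, which moves enzymes to the melanosome, averaged 14.5 ± 7.34 CPM (SD, n = 3) in control embryos against 0.186 CPM at stage 20. Its relative *rab32* went the other way, with 30.5 ± 2.84 CPM in control embryos against 65.6 CPM at stage 20.

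Genes of mature neurons and synapses rose in 40 of 86 tested members (26 without control replicate 3) and fell in 4 (8 without replicate 2 and 2 without replicate 3), with a median log2 fold change of 1.04. *nefh*, the heavy neurofilament, stood at 3.80, 5.91 and 5.74 CPM in the controls against 0.0354 CPM at stage 20 (log2 fold change 7.14, SE 0.62, edgeR FDR 0.00296). *cplx1*, a complexin of the release machinery, stood at 1.82, 8.21 and 3.27 CPM in the controls against 0.106 CPM at stage 20, a log2 fold change of 5.37 that was 4.56 without control replicate 2. Some general neuronal genes did not pass. *elavl3*, which marks neurons from their birth, stood at 38.5, 36.4 and 37.4 CPM in the controls and at 37.7 CPM at stage 20, and *tubb2b* at 547, 687 and 524 CPM in the controls and at 495 CPM at stage 20. *slc6a3*, the dopamine transporter, fell to 1.73 ± 0.664 CPM (SD, n = 3) in control embryos against 13.9 CPM at stage 20.

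Hormone and neuropeptide genes rose in 15 of 26 tested members and fell in 3 (1 without control replicate 3). *npy*, neuropeptide Y, stood at 4.30, 13.5 and 4.44 CPM in the controls and at 0.0975 CPM at stage 20, a log2 fold change of 6.23 that was 5.47 without control replicate 2. *gnrh2*, a gonadotropin-releasing hormone gene, averaged 2.15 ± 0.895 CPM (SD, n = 3) in control embryos against 0.0532 CPM at stage 20. *pomc*, the precursor of ACTH and MSH, had 36, 512 and 39 reads in the controls and none at stage 20. The mean of the controls was at least 64.7-fold higher, but replicate 2 carried most of it (0.307, 4.37 and 0.486 CPM in replicates 1, 2 and 3). *avp*, the vasotocin gene of the frog, moved the other way, at 3.21, 1.41 and 4.58 CPM in the controls against 13.5 CPM at stage 20.

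Of 64 tested regulators of the neural plate and of neuronal commitment, 29 were lower and 4 higher (2 without control replicate 3), with a median log2 fold change of -0.60. *gbx2.2*, which positions the boundary of midbrain and hindbrain, stood at 10.2, 7.47 and 10.9 CPM in the controls against 77.4 CPM at stage 20 (log2 fold change -3.02, SE 0.23, edgeR FDR 0.00224). *olig4* averaged 1.75 ± 0.780 CPM (SD, n = 3) in control embryos against 17.4 CPM at stage 20, and the neural plate gene *foxd4l1.1* 1.83 ± 0.654 CPM in control embryos against 15.5 CPM at stage 20. The progenitor genes fell less: *sox2* stood at 80.9, 63.1 and 80.9 CPM in the controls against 152 CPM at stage 20, and *sox3* at 189, 104 and 165 CPM in the controls against 376 CPM at stage 20. *zic2* averaged 7.61 ± 1.51 CPM in control embryos against 18.5 CPM at stage 20. *neurod1*, which drives neuronal differentiation, rose to 52.9, 65.7 and 49.2 CPM in the controls against 16.1 CPM at stage 20. *neurog3*, which acts before it, stood at 5.30 ± 1.18 CPM in control embryos and 4.97 CPM at stage 20, inside the range of the controls.

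Neural crest genes fell in 18 of 39 tested members and rose in 8 (2 without control replicate 3). The rises, 20.5% of the list, were near the 20.2% of all genes tested. *snai2*, a zinc finger repressor of the premigratory crest, stood at 32.6, 33.4 and 34.4 CPM in the controls against 112 CPM at stage 20 (log2 fold change -1.74, SE 0.15, edgeR FDR 0.00313), *sox10* at 59.6, 52.0 and 53.2 CPM in the controls against 178 CPM at stage 20, and *sox8* at 7.14 ± 1.86 CPM (SD, n = 3) in control embryos against 25.2 CPM at stage 20. *snai1* fell to 237 ± 45.4 CPM in control embryos against 554 CPM at stage 20. *cdh6*, a cadherin of crest and kidney, rose to 18.7 ± 3.47 CPM in control embryos against 5.02 CPM at stage 20. None of the 39 passed the 4-fold distance in either direction.

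The tail bud and presomitic mesoderm list had the highest share of falls of the 28 lists, 33 of 50 tested genes (66.0%), with 2 rises and a median log2 fold change of -1.13. This tissue holds the progenitors from which the trunk and tail are built. The brachyury genes themselves fell: *t* (*Xbra*) stood at 16.7, 9.49 and 15.4 CPM in control embryos against 60.3 CPM at stage 20 (log2 fold change -2.12, SE 0.31, edgeR FDR 0.00919), and *t2* (*Xbra3*) at 26.1, 13.9 and 23.5 CPM in control embryos against 62.7 CPM at stage 20. *msgn1*, which commits cells to the paraxial mesoderm, stood at 11.5, 5.01 and 12.6 CPM in the controls against 64.3 CPM at stage 20. The segmentation genes *mespa* and *mespb* averaged 4.22 ± 1.81 and 1.05 ± 0.463 CPM (SD, n = 3) in control embryos, against 30.2 and 16.1 CPM at stage 20. *cdx1*, a caudal gene that sets posterior identity, averaged 2.46 ± 0.666 CPM in control embryos against 42.9 CPM at stage 20. *wnt8a*, already named among the largest falls, belongs here too. In each of *t*, *t2*, *msgn1*, *mespa* and *mespb* the lowest control was replicate 2, and all 5 were called without it. The rises were *pax9* of the sclerotome, at 6.71 ± 1.68 CPM in control embryos and 2.21 CPM at stage 20, and *foxf1*. Neither was called without control replicate 3.

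The organizer, axis and early inducer list fell in 26 of 45 tested genes and rose in 2, with the lowest median of the 28 lists, -1.21 on the log2 scale. *chrd*, which encodes the BMP antagonist chordin, stood at 16.0, 7.46 and 11.1 CPM in the controls against 139.9 CPM at stage 20 (log2 fold change -3.60, SE 0.36, edgeR FDR 0.00431). *not*, a homeobox gene of the notochord and tail bud, averaged 11.1 ± 3.24 CPM (SD, n = 3) in control embryos against 45.5 CPM at stage 20. *sox17b.2* averaged 0.151 ± 0.0606 CPM in control embryos against 4.71 CPM at stage 20. *gsc*, an organizer gene of the gastrula, had 4, 103 and 18 reads in the controls and 87 at stage 20, inside the range of the controls, and was called lower without control replicate 2. *eomes* was a rise: this T-box gene of the early mesoderm and later of the forebrain stood at 18.8, 21.4 and 15.2 CPM in the controls against 2.76 CPM at stage 20 (log2 fold change 2.74, SE 0.31).

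Maternal, pluripotency and germ plasm genes gave 16 falls (9 without control replicate 3) and no rise among 43 tested genes. *oct91*, a Pou factor of the pluripotent blastula, stood at 1.72, 0.785 and 1.23 CPM in the controls against 21.4 CPM at stage 20 (log2 fold change -4.097, SE 0.39, edgeR FDR 0.00388). *ventx1.1*, a ventral homeobox gene, stood at 3.304, 0.708 and 3.43 CPM in the controls against 38.9 CPM at stage 20. *oct25* averaged 1.15 ± 0.701 CPM (SD, n = 3) in control embryos against 7.39 CPM at stage 20, and the RNA-binding *lin28a* 49.2 ± 8.10 CPM in control embryos against 107 CPM at stage 20. Cell cycle and DNA replication genes, by contrast, were called less often in the main test than all genes tested. Of 105 tested genes 12 were lower, 5 higher and 88 not called. The shares, 11.4% lower and 4.76% higher, were below the 17.1% and 20.2% of all genes tested. Without control replicate 2 the number higher was 11, and without replicate 3 it was 1. *ccna2* stood at 237, 135 and 169 CPM in the controls and at 229 CPM at stage 20, and *cdk1* at 35.3, 29.4 and 38.4 CPM in the controls and at 25.6 CPM at stage 20. *ccna2* was called without control replicate 1 and *cdk1* without replicate 2. The count of this list depended on the controls used, with 32 falls without replicate 1, 23 without replicate 2 and 1 without replicate 3. *chek1*, a checkpoint kinase gene, rose to 62.0 ± 8.24 CPM in control embryos against 29.5 CPM at stage 20.

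Sarcomere genes rose in 24 of 62 tested members and fell in 12, with a median log2 fold change of 0.52. The share of falls (19.4%) was near the 17.1% of all genes tested. *actc1*, the alpha-actin of embryonic muscle, stood at 7825, 5905 and 7329.6 CPM in the controls and at 7056 CPM at stage 20, inside the range of the controls. *mylpf*, fast myosin light chain, stood at 1470.1, 1467 and 1491 CPM in the controls and at 1026 CPM at stage 20, and did not pass the test (edgeR FDR 0.121), though it was called without control replicate 2. *tnnc2*, fast troponin C, rose to 1660.2, 1819.5 and 1695 CPM in the controls against 691 CPM at stage 20. *myh2*, a myosin heavy chain gene, fell to 1149, 1000.3 and 1158 CPM in the controls against 2218 CPM at stage 20. Without control replicate 3 neither *tnnc2* nor *myh2* was called. *flnc*, a filamin of the Z-disc, fell to 129 ± 30.4 CPM (SD, n = 3) in control embryos against 605 CPM at stage 20. Actin and myosin heavy chain genes are near-identical in part, so their counts are uncertain.

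Energy and calcium genes of muscle rose in 9 of 31 tested members and fell in 6, and the median log2 fold change was -0.01, which turned to 0.09 with library size scaling and 0.24 with the reference genes. Falls made up 19.4% of the list, near the 17.1% of all genes tested. A few rises were large. *ckm*, muscle creatine kinase, stood at 2546, 4843 and 3253 CPM in the controls against 243 CPM at stage 20 (log2 fold change 3.87, SE 0.49, edgeR FDR 0.00700). The calcium buffers *pvalb*, *ocm* and *ocm.2* rose with it: *pvalb* stood at 24.7, 46.9 and 45.8 CPM in the controls against 0.177 CPM at stage 20, and *ocm.2* averaged 711 ± 359 CPM (SD, n = 3) in control embryos against 6.14 CPM at stage 20. *chrng*, the embryonic subunit of the acetylcholine receptor, fell to 38.4 ± 12.2 CPM in control embryos against 199.7 CPM at stage 20. Among 18 muscle regulators 8 were lower and none higher. *myod1* stood at 18.7, 13.1 and 16.4 CPM in the controls against 73.1 CPM at stage 20 (log2 fold change -2.19, SE 0.22), and *pax3*, of the muscle and crest precursors, at 11.4, 8.39 and 12.7 CPM in the controls against 41.8 CPM at stage 20. *myf5* fell less, to 45.7 ± 7.45 CPM in control embryos against 75.6 CPM at stage 20. It was called only with control replicate 3 in the fit, though all 3 controls lay below the stage 20 value. *myog* and *myf6* did not pass the test; *myog* stood at 8.07, 23.4 and 12.3 CPM in the controls and at 17.9 CPM at stage 20, and was called lower without control replicate 2.

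Of 24 tested heart genes, 11 were higher (45.8%) and 6 lower (25.0%), against 20.2% and 17.1% of all genes tested. The rises included contractile genes such as *myl7* and *tnnt2*, and also the regulators *hand2*, *hey2* and *hopx*. *myl7*, the atrial myosin light chain, stood at 9.54, 25.6 and 12.6 CPM in the controls against 0.186 CPM at stage 20 (log2 fold change 6.41, SE 0.84, edgeR FDR 0.00758), and *tnnt2* was among the genes that came on. *nppb*, a natriuretic peptide gene, had 59, 303 and 89 reads in the controls against 6 at stage 20, a log2 fold change of 4.69 that was 3.88 without control replicate 2. The falls were *nkx2-5*, *gata4*, *gata5*, *gata6*, *tbx20* and *isl1*, all transcription factors of the heart field or of tissues beside it. *nkx2-5* stood at 1.44, 1.11 and 0.898 CPM in the controls against 4.94 CPM at stage 20. *tbx5* had 7 reads or fewer in each of the 4 libraries.

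In the pronephros, the larval kidney, 20 of 46 tested genes fell (13 without control replicate 3) and 10 rose. The share of rises (21.7%) was near the 20.2% of all genes tested. The early regulators *pax8* and *pax2* fell: *pax8* stood at 14.5, 9.65 and 15.5 CPM in the controls against 60.9 CPM at stage 20, and *pax2* at 13.1, 9.60 and 11.2 CPM in the controls against 30.7 CPM at stage 20. The largest fall of the list, -4.65 on the log2 scale, was in the carrier gene *slc5a8*, already named among the largest falls. *slc12a1*, the transporter of the diluting segment, stood at 14.8, 24.1 and 16.6 CPM in the controls and at 30.2 CPM at stage 20, and did not pass the test (edgeR FDR 0.128), though it was called without control replicate 2. *slc26a1*, a sulphate transporter, had 72, 682 and 181 reads in the controls and 3 at stage 20, a ratio of 109 (95% Poisson interval 37.3 to 528), and its log2 fold change of 6.71 was 5.68 without control replicate 2.

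The multiciliated and mucociliary skin list fell in 52 of 79 tested genes and rose in 9 (3 without control replicate 3). Its median log2 fold change was -1.02. The beating cilia of the skin carry axonemal motors, and *dnah11*, a dynein heavy chain, fell to 9.10, 8.34 and 7.13 CPM in the controls against 63.1 CPM at stage 20 (log2 fold change -2.95, SE 0.20, edgeR FDR 0.00196). *spag6*, of the central pair of the axoneme, averaged 0.939 ± 0.314 CPM (SD, n = 3) in control embryos against 6.72 CPM at stage 20. *foxj1*, the master regulator of motile cilia, fell to 37.5, 23.0 and 42.0 CPM in the controls against 66.5 CPM at stage 20. The keratin gene the table names *krt* had the largest fall of the list, to 848, 259 and 675 CPM in the controls against 10734 CPM at stage 20. *agr2* of the cement gland and mucous cells stood at 224, 99.2 and 167 CPM in the controls against 730 CPM at stage 20, and *foxi1*, of the ionocytes, at 34.2, 24.3 and 35.0 CPM in the controls against 70.3 CPM at stage 20. Some members went up. *mcidas*, the coactivator that starts the multiciliated programme, rose to 5.17, 4.45 and 4.102 CPM in the controls against 0.461 CPM at stage 20 (log2 fold change 3.31, SE 0.39). The lectin gene *itln1*, secreted by the skin and 1 of 2 genes with this symbol, and the hatching enzyme gene *uvs.2* were higher at stage 32, at 324 ± 59.5 and 361 ± 153 CPM in control embryos against 190.3 and 125 CPM at stage 20, but neither was called without control replicate 3.

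In cartilage and connective matrix, 22 of 65 tested genes were higher and 21 lower (13 without control replicate 3). The shares, 33.8% higher and 32.3% lower, were both above the 20.2% and 17.1% of all genes tested. Among the fibrillar collagens, *col1a1*, *col1a2* and *col3a1* were called higher and *col5a1* and *col2a1* lower, and *col5a2* was not called. *col1a1* stood at 965, 1985 and 1282 CPM in the controls against 87.6 CPM at stage 20 (log2 fold change 4.01, SE 0.53, edgeR FDR 0.00755), *col3a1* at 23.8, 36.6 and 29.1 CPM in the controls against 0.470 CPM at stage 20, and *col1a2* at 2.44, 2.75 and 2.23 CPM in the controls against 0.390 CPM at stage 20. *matn3* and the fibrillin gene *FBN2* rose as well, to 1.53 ± 0.559 and 12.7 ± 4.84 CPM (SD, n = 3) in control embryos against 0.0532 and 0.771 CPM at stage 20. The fibrillin genes *fbn1* and *fbn3* were called lower, at 2.74 ± 0.414 and 512 ± 80.0 CPM in control embryos against 8.44 and 809 CPM at stage 20. *col2a1*, the collagen of cartilage and of the notochord sheath, fell to 13.7, 6.95 and 8.35 CPM in the controls against 46.9 CPM at stage 20. *sp7*, known in other vertebrates as the bone factor osterix, fell to 4.43 ± 0.464 CPM in control embryos against 43.6 CPM at stage 20.

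Hox genes give cells their position along the body axis. Of 13 genes of groups 1 to 4, 8 were lower and 1 higher, of 14 genes of groups 5 to 9, 7 were lower and none higher, and of 9 genes of groups 10 to 13, 2 were lower and 3 higher (1 and 0 without control replicate 3). The shares in groups 10 to 13 were 22.2% lower and 33.3% higher, against 17.1% and 20.2% of all genes tested. They rest on 9 genes, and the share of falls was near that of all genes tested. The median log2 fold change was -0.78 in groups 1 to 4, -0.97 in groups 5 to 9 and 0.43 in groups 10 to 13. The difference between groups was not tested. The falls in group 1 were large: *hoxb1* stood at 6.08, 1.53 and 3.64 CPM in the controls against 23.2 CPM at stage 20, and *hoxd1* at 12.7, 4.79 and 11.9 CPM in the controls against 53.1 CPM at stage 20. Their log2 fold changes of -2.63 and -2.44 (SE 0.60 and 0.47) were both called. At the other end *hoxa13* stood at 3.16, 4.11 and 5.07 CPM in the controls against 1.44 CPM at stage 20 (log2 fold change 1.52, SE 0.41, edgeR FDR 0.0418), *hoxc12* at 4.96 ± 1.17 CPM (SD, n = 3) in control embryos against 2.27 CPM at stage 20, and *hoxd13* at 7.58 ± 1.94 CPM in control embryos against 3.85 CPM at stage 20. All 3 lost their call without control replicate 3, and with scaling to the reference genes 1 gene of groups 10 to 13 was called higher. *hoxc13* did not pass the test, with 6.28, 6.49 and 9.09 CPM in the controls and 4.40 CPM at stage 20, though it was called without control replicate 2. *hoxa4* was the exception among the anterior genes, at 10.8, 16.2 and 17.04 CPM in the controls against 5.41 CPM at stage 20 (log2 fold change 1.44, SE 0.34). Genes of one cluster lie side by side and are not independent of each other.

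**Figure D5:**
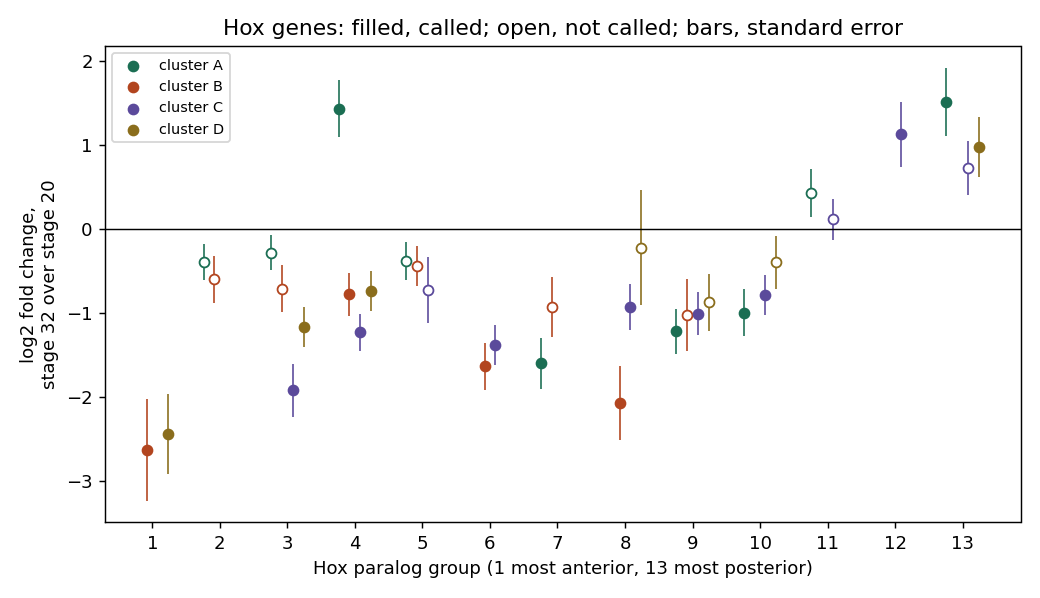
Log2 fold change, stage 32 over stage 20, of 35 Hox genes by paralog group, with clusters A to D in colours and bars of 1 standard error. Filled points were called and open points were not; *hoxb1* and *hoxd1* of group 1 lie at -2.63 and -2.44, the genes of groups 11 to 13 lie above 0, and *hoxa4* is the only one drawn of groups 1 to 10 above 0.

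All 75 cytoplasmic ribosomal protein genes had a log2 fold change above 0, with a range of 0.30 to 1.19 and a median of 0.78, and 66 were called. That count rests on the controls and the threshold, as it was 2 without control replicate 3 and 28 at an FDR of 5%, while the median stayed at 0.76 without replicate 3. *rplp2* stood at 478, 607 and 609.7 CPM in the controls and at 248 CPM at stage 20. Together the ribosomal protein genes took 9.33%, 11.6% and 10.8% of the reads in the controls against 5.81% at stage 20. Of 64 genes of the mitochondrial respiratory chain, 57 were higher and none lower (35 higher without control replicate 3), with a median log2 fold change of 1.09. *sdhc*, of the succinate dehydrogenase complex, stood at 61.3, 83.2 and 76.9 CPM in the controls against 12.3 CPM at stage 20 (log2 fold change 2.58, SE 0.26, edgeR FDR 0.00445), and the ATP synthase gene *atp5g1* at 52.6 ± 9.90 CPM (SD, n = 3) in control embryos against 12.6 CPM at stage 20. The median of both lists stayed above 0 with library size scaling and with the reference genes. However, *rpl8* is both a reference gene and 1 of the 75 ribosomal protein genes. Scaling to the reference genes is therefore no independent check of that list.

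Since the control embryos at stage 32 were injected and those at stage 20 were not, genes that morpholinos can induce in fish and frogs were read beside the rest. Of 30 genes of the p53 response, 8 were higher (26.7%) and 8 lower (26.7%), against 20.2% and 17.1% of all genes tested. Without control replicate 3 the counts were 5 and 4. The median log2 fold change of the 30 genes was 0.17. Their summed levels were 0.194% to 0.246% of the reads in the controls against 0.179% at stage 20. *ccng1*, which encodes cyclin G1, rose to 614, 918 and 711 CPM in the controls against 126 CPM at stage 20 (log2 fold change 2.57, SE 0.33, edgeR FDR 0.00684). *eda2r* and *tnfrsf10b*, both receptors with p53 sites in mammals, rose to 15.3 ± 3.46 and 18.7 ± 4.73 CPM (SD, n = 3) in control embryos against 1.74 and 3.58 CPM at stage 20. *mdm2*, a main p53 target, stood at 18.4, 20.4 and 19.8 CPM in the controls and at 14.8 CPM at stage 20, and did not pass the test (edgeR FDR 0.179). *perp* fell to 10.9 ± 1.92 CPM in control embryos against 24.04 CPM at stage 20. Of 26 interferon response genes 2 were higher and 3 lower, with summed levels of 0.0137% to 0.0167% of the reads in the controls against 0.0194% at stage 20. Those counts, 7.69% higher and 11.5% lower, were below the 20.2% and 17.1% of all genes tested. *ddx58*, which encodes the RNA sensor RIG-I, rose to 5.45, 5.97 and 6.76 CPM in the controls against 0.416 CPM at stage 20. The part of the injection in these values, and in the others, was not tested.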

How the data were processed

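Poly(A) RNA was sequenced from both ends, 55 bases each, in 7 libraries. The authors used Bowtie 0.12.7 to place read pairs on the Ensembl JGI4.1 transcriptome and discarded pairs that fit several genes. The submitters' processing notes also name CASAVA 1.8 and DESeq. The deposited counts are reads per transcript, without normalization; a pair fitting several transcripts of the same gene counted a single time, and to which of them it went is not given in the sources used here. The header's 7 names, which follow empty fields, were taken in order for the 7 value columns. Transcripts were summed per gene. Of 732 genes named by a RefSeq protein, 694 took a symbol from the annotation of UCB_Xtro_10.0, as did 540 of 1684 with a LOC name.

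The main test was edgeR 4.0.16 (R 4.3.3) with TMM scaling on the 4 libraries, at least 10 reads in total, the quasi-likelihood test and Benjamini-Hochberg adjustment at 10%. The spread comes from the 3 controls; no exact permutation test of 1 library against 3 can go below p = 0.25. Depth was 79219418 to 120160026 reads, so intervals matter only for genes of a few reads, and they cover counting error only. The SE of a log2 fold change was derived from the test. It is the absolute log2 fold change divided by the square root of the quasi-likelihood F statistic. A fold against 0 reads was computed from the mean of the controls against 3 reads in the stage 20 library, so a single control can lie below it. No list held more than 2 genes at 0 reads in a group, so setting such genes at that bound left the list medians the same.

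The text names the 8 largest called rises and falls with a symbol and at least 10 CPM. It also names the 8 most abundant genes with a symbol that came on or went off. For each list it names the 3 largest changes in the main direction and 1 in the other (at least 1 CPM), and a few anchor genes. Those named outside this rule (*crygdl.32*, *foxf1*, *col5a1*, *col5a2*, *fbn1*, *fbn3* and the transcription factors named without a value) were chosen after their values were seen. Genes and lists were chosen with earlier results of these data known, and a few aliases were corrected to the table's names afterwards. Alternatives were DESeq2 1.42.0, its size factors, library size only, 4 reference genes, no filter, filterByExpr, all 7 libraries, an FDR of 5%, the top transcript, and leaving out each control. A few genes are not reported here, though they count in the totals. The test was also run on simulated data with 200 changed genes, far fewer than were called in the real data. The outcome of that run is not reported here, and no conclusion is drawn from it. Simulated data cannot show how an unreplicated library would vary.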

Additional observations from a re-analysis of the deposited data

How the results depend on the processing

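No gene called under the main settings was called in the other direction under any alternative run. The numbers of genes called higher and lower stayed within 1.5 times under DESeq2, its size factors, library size only, no filter, filterByExpr, all 7 libraries, the top transcript and an FDR of 5%. Scaling to the reference genes lowered the genes called lower to 1398, of which 1394 were among the 2856. Leaving out 1 control library at a time gave 1821 to 3963 genes higher, 1357 to 3606 lower, 906 to 1326 at least 4-fold higher, 269 to 432 at least 4-fold lower, 92 (all libraries) against 93 to 106 that came on, and 8 (all libraries) against 9 to 20 that went off. The lowest counts of calls came without control replicate 3 and the cause was not tested. Of 156 named genes called, 23 lost their call without it. The medians of muscle energy and calcium genes and of white blood cell genes turned above 0 with the reference genes (0.24 and 0.04), and that of interferon genes fell below 0 without control replicate 3 (-0.04). No paired analysis was possible because stage 20 has 1 library, which carries no replicate number. The stage 20 values have no replicate check, and genes with a few reads are limited by depth.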

Other observations

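Some genes changed the transcript that carried most of their reads. Genes with several transcripts and at least 100 reads in each of the 4 libraries numbered 2428. Of these, 40 had one leading transcript in all 3 control libraries and another at stage 20. In 13 of the 40, a transcript's share was at least 20 percentage points lower at stage 20 than in the nearest control. These genes were named after their values were seen, and no test was run. For *elovl6*, a fatty acid elongase, the transcript that led at stage 32 held 67.7%, 73.4% and 66.3% of the gene's reads in the controls against 28.8% at stage 20. For *DMD*, dystrophin, it held 62.8%, 75.5% and 76.4% in the controls against 25.8% at stage 20. For *eno1*, the glycolytic enolase, it held 59.0%, 55.0% and 60.0% in the controls against 33.2% at stage 20, and for the fibrillin gene *fbn3* it held 69.5%, 69.0% and 71.7% in the controls against 47.4% at stage 20. Pairs shared by transcripts of a gene counted a single time, and the transcript that received them is not given in the sources used here, so these shares may not be the shares of the RNA.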
